A study of Mus musculus with 358 samples.

Results

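Adult brain and kidney of mice of the strain labelled B6 were compared on 2-colour arrays, over 12 samples of each tissue. Samples were chosen by their labels alone (strain B6, tissue brain or kidney, age 8 weeks or 6 months), which gave 24 of the 90 biological samples of the series and 94 of its 358 arrays. They form 8 groups of 3 samples: females and males of 8 weeks and females and males of 6 months, each for brain and for kidney. No allele or treatment is labelled for any group. Every array set total RNA of 1 tissue sample against Universal Mouse Reference RNA (Stratagene), a commercial pool of mouse RNA, with the tissue in Cy3 on 47 arrays and in Cy5 on 47. A sample has 3 or 4 arrays, which gave 1 value, the mean of its Cy3 and its Cy5 average. The labels number biological replicates and do not say whether these are separate animals, so p-values measure the spread between the samples, which may be in part technical. The labels state no question beyond these groups.

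Brain and kidney are both built of many cell types. Neurons pass signals by releasing neurotransmitter from synaptic vesicles, along axons held by microtubules and neurofilaments, and glia support and insulate them. The kidney filters blood in glomeruli and reclaims solutes along the nephron, where the proximal tubule takes up glucose, amino acids and organic ions and makes glucose, and the thick ascending limb, distal tubule and collecting duct adjust salt, acid and water. In whole tissue, fewer cells of a type and less RNA per cell cannot be told apart.

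A level here is the log2 ratio of tissue to reference RNA at 1 spot, centred on the median of the array, and a difference is the mean of the 4 brain groups minus the mean of the 4 kidney groups with its standard error (SE). The deposited ratios were inverted to read tissue over reference, after which 20 of 21 hepatocyte genes were higher in liver arrays of the series than in brain and kidney. Levels of different genes are ratios to the same reference and cannot be set against each other. Each of 10196 probes was tested with limma over 8 group means, and a probe or gene was called at a Benjamini-Hochberg adjusted p below 0.05. Genes are represented by 1 probe each, 6377 in all.

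Arrays held 10088 to 10708 probes with a value, and the background of the spots is not given in the sources used here. The 3 samples of each group and their arrays limit the precision. Arrays of one sample correlated across probes at a median of 0.968 within a dye and 0.753 between dyes, with the lowest value, 0.4, in kidney M1 of 8 weeks. The tissue labels fitted their markers: the mean level of 18 neuron structure genes ran from 1.95 to 2.54 in brain and from -0.12 to 0.16 in kidney, and that of 30 proximal tubule transporters from 2.74 to 3.56 in kidney and from 0.36 to 0.66 in brain. Females and males did not overlap for the Y-linked demethylase gene Kdm5d in either tissue and for Xist in kidney, while they overlapped for Xist in brain and for Eif2s3y, Kdm6a and Ddx3x in both tissues. Samples that stand apart were brain F2 of 8 weeks, with a hepatocyte list mean of 1.40 against at most 0.20 in the other brains, and kidney F2 of 8 weeks, with an adrenal and gonad list mean of 2.35 against at most 1.10 in the other kidneys. In the 6-month samples F3 and M3 of both tissues a set of spots lay close to the reference although F1, F2 and M1 did not. The set holds probes within 0.6 in F3 and M3 that exceeded 2 in size in F1 and M1 and 1.5 in F2. These were 39 of 615 such brain probes and 66 of 539 such kidney probes. The rule did not use M2, and kidney M2 was also lower on spots such as Keg1 (2.83 against 6.10 to 7.03 in F1, F2 and M1). Named genes of this set are given with and without F3 and M3 of both tissues. The values without these 4 samples still hold kidney M2. As values of F3 and M3 defined the set, a smaller SE of its genes without them was likely and is no test. Leaving the 4 samples out changed a count of calls for brain minus kidney in 20 of 44 lists, by at most 2 genes in a direction.

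The promoters of 4 genes that mark the ends of the comparison follow, as the 250 bases before the RefSeq transcript start on build GRCm38.p6, read 5′ to 3′ on the gene's strand. Pck1 and G6pc encode enzymes of glucose production and were among the 15 genes highest in kidney, whereas Crmp1, a mediator of axon guidance signals, and Meg3, an imprinted long non-coding RNA, were among the 15 highest in brain. Capitals mark the motifs searched on both strands: the HNF1 half-site GTTAAT, the cyclic AMP response element TGACGTCA, the GC box GGGCGG and the TATA box TATAAA. All 4 genes lie on the plus strand.
Pck1, chr2:173152823-173153072: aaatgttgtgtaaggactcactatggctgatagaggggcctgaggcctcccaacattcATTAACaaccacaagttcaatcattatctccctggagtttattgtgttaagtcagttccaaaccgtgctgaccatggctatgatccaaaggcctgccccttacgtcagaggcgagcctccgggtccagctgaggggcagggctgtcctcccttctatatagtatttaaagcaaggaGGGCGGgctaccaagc
G6pc, chr11:101367466-101367715: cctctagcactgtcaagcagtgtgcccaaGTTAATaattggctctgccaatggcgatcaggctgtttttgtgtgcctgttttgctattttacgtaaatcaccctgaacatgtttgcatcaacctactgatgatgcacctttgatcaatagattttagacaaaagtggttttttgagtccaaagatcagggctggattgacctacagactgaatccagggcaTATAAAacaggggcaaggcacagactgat
Crmp1, chr5:37241808-37242057: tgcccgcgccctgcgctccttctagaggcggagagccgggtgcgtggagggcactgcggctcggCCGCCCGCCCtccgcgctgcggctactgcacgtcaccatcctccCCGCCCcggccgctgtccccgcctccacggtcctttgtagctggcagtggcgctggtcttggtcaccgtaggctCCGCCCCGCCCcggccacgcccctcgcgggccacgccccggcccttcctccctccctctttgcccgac
Meg3, chr12:109540746-109540995: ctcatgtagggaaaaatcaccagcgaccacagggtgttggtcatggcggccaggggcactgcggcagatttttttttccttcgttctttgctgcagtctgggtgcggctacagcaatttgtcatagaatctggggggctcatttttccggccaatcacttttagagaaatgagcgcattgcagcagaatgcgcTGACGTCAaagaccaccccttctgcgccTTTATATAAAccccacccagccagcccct

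The half-site stood 192 bases before the start of Pck1, on the reverse strand, and 221 before that of G6pc, where a TATA box followed at 29. Crmp1 held 5 GC boxes, all on the reverse strand and partly overlapping, and Meg3 a cyclic AMP response element at 57 bases with a TATA box on each strand, overlapping, behind it. A second promoter of Crmp1 and of Meg3 is listed and not shown. Over the promoters found for the named genes (11 of 15 in brain, 13 of 15 in kidney), the half-site occurred in 1 brain and 2 kidney genes, the cyclic AMP response element in 1 and 0, the GC box in 6 and 5 and the TATA box in 2 and 1. These counts are of genes, and a gene can have several promoters. Counted by promoter they were 1, 1, 8 and 2 of 21 in brain and 2, 0, 5 and 1 of 16 in kidney. Among all 32851 promoters of the table, also counted by promoter, these letters occurred in 6.43%, 1.55%, 32.7% and 12.4%. A match describes these letters and is not a site.

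Brain and kidney differed at close to as many genes as not. With 1 probe read per gene, the largest differences favouring brain belonged to neuronal genes such as Fez1, Crmp1 and Tubb4a, and those favouring kidney to Napsa, Klk1, Pck1 and Egf. In limma, 4828 of 10196 probes were called (47.4%), 2359 higher and 2469 lower in brain. Of 6377 genes, 3502 were called (54.9%), 1675 higher (26.3%) and 1827 lower (28.6%), and 1312 (20.6%) also differed by at least 1 on the log2 scale, 672 higher (10.5%) and 640 lower (10%). Among 6321 genes with a value in all 24 samples, the 12 brain and the 12 kidney samples did not overlap for 1185 (18.7%), 621 with brain above (9.82%) and 564 with kidney above (8.92%). Differences of at least 4-fold, 2 on the log2 scale, were called for 280 genes higher and 242 lower in brain. Without centring of arrays the split of called probes for brain minus kidney was 2793 higher and 1824 lower, and the median difference of all probes moved from -0.04 to 0.08. Of 218 genes with 2 or more called probes, 184 had probes of one sign only, so a gene read from 1 spot carries that uncertainty. Size depends on the probe as well: the Prkcb probe read here differed by 1.38 ± 0.09. A second Prkcb probe differed by 6.11 ± 0.13, more than Fez1.

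**Figure D1:**
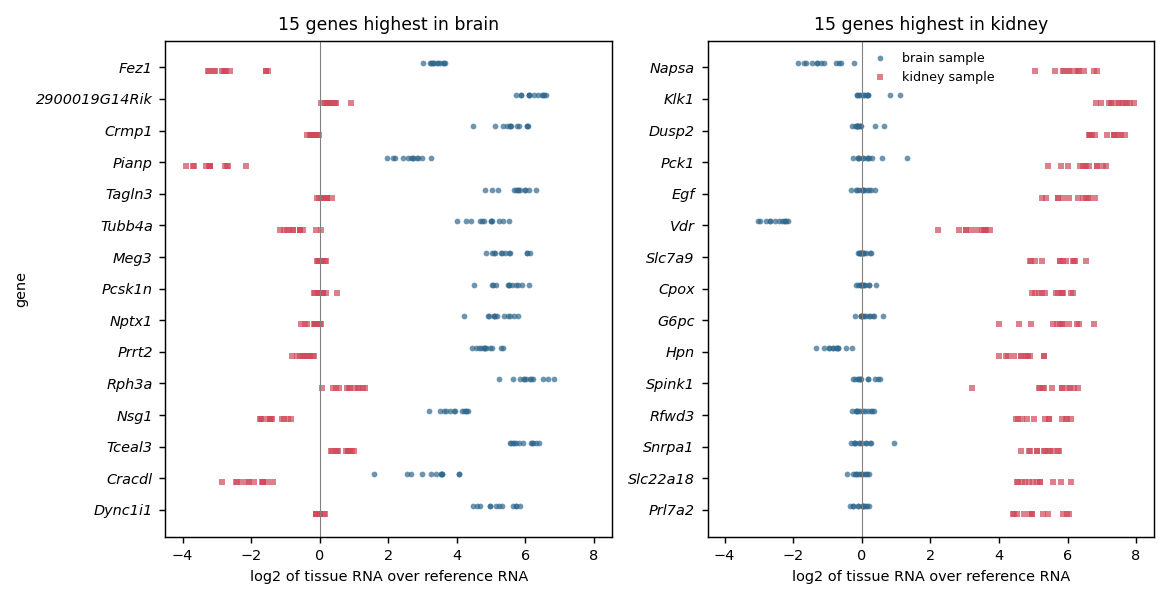
Level (log2 of tissue over reference RNA, centred per array) of each of the 12 brain samples (circles) and 12 kidney samples (squares) for the 15 genes with the largest differences in each direction. The tissues do not overlap for any of these 30 genes, which is a condition of their choice, and both tissues are displaced to opposite sides for genes such as Fez1 and Vdr.

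Fez1, an adaptor for transport along axons, had levels from 3.01 to 3.66 in brain (median 3.38) and from -3.26 to -1.50 in kidney (median -2.78), a difference of 5.97 ± 0.17 (SE, adjusted p = 1.19e-16). The samples of the tissues lay on opposite sides of the reference and far apart. Crmp1 lay between 4.48 and 6.09 in brain (median 5.57) and between -0.38 and -0.01 in kidney (median -0.20), so that its kidney samples sat close to the reference and its difference was 5.76 ± 0.12 (adjusted p = 1.82e-18).

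Tubb4a, a β-tubulin of neurons and oligodendrocytes, ran from 4.00 to 5.53 in brain and from -1.15 to 0.03 in kidney, and differed by 5.49 ± 0.16 (adjusted p = 1.40e-16). Dync1i1, the neuronal intermediate chain of the dynein motor, differed by 5.21 ± 0.13, with brain samples between 4.46 and 5.84 and kidney samples between -0.12 and 0.16. Meg3 reached 4.85 to 6.12 in brain (median 5.35) and -0.09 to 0.17 in kidney (median 0.02), a difference of 5.41 ± 0.11 (adjusted p = 1.90e-18). A second Meg3 probe had the same direction and a far smaller difference, 0.76 ± 0.07. For all 3 the kidney samples sat near or slightly below the reference and did not overlap the brain samples.

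The other genes at the brain end were 2900019G14Rik (5.88 ± 0.10), Pianp (5.75 ± 0.18), the actin-binding neuronal gene Tagln3 (5.54 ± 0.12), Pcsk1n for the prohormone convertase inhibitor proSAAS (5.39 ± 0.11), the pentraxin Nptx1 (5.38 ± 0.14), Prrt2 of the presynapse (5.29 ± 0.08), the vesicle protein rabphilin Rph3a (5.27 ± 0.14), the endosomal gene Nsg1 (5.26 ± 0.11), Tceal3 (5.24 ± 0.10) and Cracdl (5.22 ± 0.24). Prrt2 had the smallest SE of the 15. Its brain samples lay between 4.44 and 5.36 and its kidney samples between -0.81 and -0.17. Cracdl spread most in brain, from 1.59 to 4.06.

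Napsa, an aspartic protease of kidney and lung, ran from 5.04 to 6.87 in kidney (median 6.16) and from -1.87 to -0.24 in brain (median -1.24), and the difference was -7.28 ± 0.18 (adjusted p = 2.10e-17), or 156-fold. Klk1, tissue kallikrein, made by the connecting tubule, ran from 6.83 to 7.94 in kidney and from -0.14 to 1.11 in brain, a difference of -7.26 ± 0.14 (adjusted p = 1.41e-18). Every kidney sample exceeded every brain sample for both proteases by several units.

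Pck1, which commits substrate to glucose production, lay between 5.43 and 7.13 in kidney (median 6.54) and between -0.25 and 1.33 in brain (median 0.10), a difference of -6.28 ± 0.19 (adjusted p = 3.04e-16). G6pc, which releases free glucose, spread more in kidney, from 3.99 to 6.78 (median 5.81) against -0.21 to 0.62 in brain, and differed by -5.50 ± 0.22 (adjusted p = 2.66e-14). Egf, the epidermal growth factor precursor made by the thick ascending limb and distal tubule, reached 5.26 to 6.80 in kidney and -0.33 to 0.39 in brain, a difference of -6.07 ± 0.12 (adjusted p = 1.82e-18). The brain samples of all 3 genes were close to the reference.

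Vdr, the vitamin D receptor, differed by -5.80 ± 0.15, and its 12 brain samples all lay below the reference (-3.03 to -2.15) while its kidney samples lay above (2.23 to 3.74). Slc7a9, the light chain of the cystine transporter, differed by -5.69 ± 0.16, Cpox of haem synthesis by -5.53 ± 0.12, the serine protease hepsin Hpn by -5.49 ± 0.12, the trypsin inhibitor Spink1 by -5.43 ± 0.21 and the transporter Slc22a18 by -5.17 ± 0.15. The remaining 4 genes at this end were Dusp2, a phosphatase of activated MAP kinases (-7.14 ± 0.14), Rfwd3, a ubiquitin ligase of DNA repair (-5.29 ± 0.16), Snrpa1 of the spliceosome (-5.22 ± 0.15) and Prl7a2 of the placental prolactin family (-5.17 ± 0.17). Each name is that of the platform annotation for 1 spot, and the Dusp2 spot had a difference of 1.34 in the arrays of 1 week.

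Genes of transmitter release were higher in brain in 15 of 18 measured members, lower in 1 and not called in 2, with a median difference of 3.43 against -0.04 over all genes. The vesicle gene Syn2 lay between 5.18 and 6.78 in brain and between 0.91 and 2.05 in kidney and differed by 4.83 ± 0.17. Rab3a, the small GTPase of synaptic vesicles, differed by 4.72 ± 0.07 with brain samples between 4.56 and 5.17 and kidney samples between -0.32 and 0.41. The fusion protein Stx1a differed by 4.98 ± 0.33, with 1 brain sample at 0.18 below a median of 3.89. Further members were Syngr3 (5.18 ± 0.12), Cplx2 (4.33 ± 0.09), synaptophysin Syp (4.28 ± 0.13), Vamp2 (3.46 ± 0.12) and dynamin Dnm1 (3.39 ± 0.08). The member lower in brain was Syt11 (-0.48 ± 0.06), a synaptotagmin outside the calcium-sensing group, and Snap91 (0.12 ± 0.07) and Syngr1 (-0.24 ± 0.12) were not called. A second Syngr1 probe was called higher in brain (2.28 ± 0.10).

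Neuron structure genes were higher in brain for 15 of 18, lower for 1, with a median of 1.92. Map2 of dendrites differed by 4.26 ± 0.14, neurofilament Nefm by 4.24 ± 0.18, the growth cone gene Gap43 by 4.08 ± 0.17 and neurofilament Nefl by 3.03 ± 0.18. Nefm and Nefl varied widely within brain, from 2.41 to 6.13 and from 1.31 to 5.00, without reaching the kidney samples. Stmn3 was called with a difference of 0.38 ± 0.09 only, and the member lower in brain was Elavl4 (-1.24 ± 0.14), a neuronal RNA-binding gene whose spot differed from the reference in 6-month kidney alone. The spot for the tau gene Mapt belongs to the set that lay near the reference in F3 and M3 of 6 months. Its difference was 1.17 ± 0.60 (adjusted p = 0.12) with all samples and 1.51 ± 0.22 without F3 and M3 of both tissues. A second Mapt probe was called higher in brain with all samples (1.04 ± 0.13, adjusted p = 1.03e-06 in limma).

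Receptor and postsynaptic genes were higher in brain for 10 of 11 and lower for none, with a median of 1.97. The AMPA receptor subunit Gria1 had levels from 3.73 to 5.43 in brain and from -0.24 to 0.08 in kidney, a difference of 4.87 ± 0.10 (adjusted p = 1.69e-18). The kinase subunit Camk2b differed by 4.93 ± 0.38 with 1 brain sample as low as 1.32 against a median of 6.01. Scaffold genes differed less, Homer1 by 1.34 ± 0.15 and Dlg4 by 0.41 ± 0.07, and the receptor subunit Grin2c was at the reference in both tissues (0.00 ± 0.05). Of 10 neuronal ion channels 7 were higher and none lower, led by Kcnab2 (3.76), Kcnc1 (2.97) and Cacna1a (2.50). Of 12 tubulin and microtubule motor genes 11 were higher and none lower (median 1.32), and of 18 genes of G protein and cyclic nucleotide signalling 10 were higher and 1 lower (median 1.01), with Pde1b at 4.13 ± 0.19.

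Prohormone genes went both ways. Of 14 measured, 8 were higher in brain, 3 lower and 3 not called, while 26.3% of all genes were higher and 28.6% lower. Carboxypeptidase Cpe (4.96), chromogranin Chgb (4.63), substance P precursor Tac1 (3.53), somatostatin Sst (3.26) and Cartpt (1.63) were higher. Avp (-0.30), Pomc (-0.39) and the aromatic amine enzyme Ddc (-1.04), which proximal tubules also use to make dopamine, were lower. The pituitary list had no measured member.

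Among glia, astrocyte genes were higher in brain for 11 of 14 and lower for none, with a median of 1.30. Sparcl1 (3.95), S100b (3.46) and Ndrg2 (2.39) led, and Gja1 (-0.06) and Glul (-0.66, and -0.68 without F3 and M3 of 6 months, as its spot is of that set) were not called. A second Glul probe had the opposite sign and was not called either (0.17 ± 0.11). Oligodendrocyte genes were higher for 5 of 8. Cnp had levels from 3.54 to 4.92 in brain and from -1.43 to 0.34 in kidney and differed by 4.31 ± 0.16, and Sox10 differed by 3.35 ± 0.12 and Mag by 2.59 ± 0.14. Mbp, the main myelin basic protein gene, differed by 1.02 ± 0.35 (adjusted p = 0.0223), with brain samples from -0.49 to 3.76 that overlapped the kidney. The member lower in brain was the small heat shock gene Cryab (-1.08 ± 0.16), which kidney also expresses. Microglia and macrophage genes were higher in brain for 8 of 13 and lower for 1, led by cathepsin Ctss (2.02) and the complement genes C1qc (1.17), C1qb (0.95) and C1qa (0.74), and lysozyme Lyz2 was lower (-0.89). Of 20 leukocyte and MHC genes, 9 were lower and 1 higher in brain, with the class II genes H2-Aa (-3.03) and H2-Eb1 (-2.63) lower and their invariant chain Cd74 higher (1.31).

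**Figure D2:**
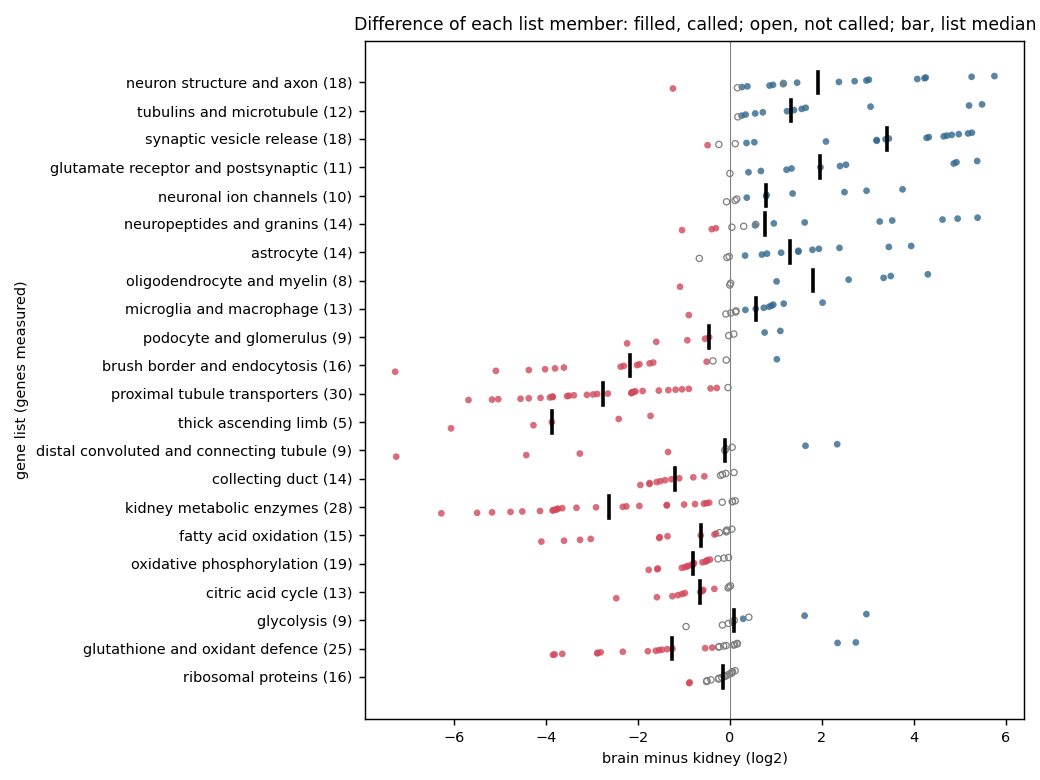
Difference of brain minus kidney (log2) for each measured member of 22 gene lists, 1 point per gene, with filled points for called genes, open points for others and a bar at the list median. The list medians run from 3.43 for synaptic vesicle release to -3.87 for the thick ascending limb, and ribosomal protein genes lie around 0 with a median of -0.14.

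Proximal tubule transporters were lower in brain, that is higher in kidney, for 29 of 30 measured members, and none was higher, with a median of -2.77. Slc6a19, the main carrier of neutral amino acids, lay between 3.62 and 5.29 in kidney and between -0.14 and 0.12 in brain, a difference of -4.55 ± 0.12 (adjusted p = 7.34e-17). The organic anion carriers Slc22a6 (-3.39 ± 0.12) and Slc22a8 (-3.86 ± 0.17), the cation carrier Slc22a2 (-4.12 ± 0.14), the sulfate carrier Slc13a1 (-4.38 ± 0.20) and the glucose carrier Slc2a2 (-3.50 ± 0.19) had no overlap between tissues. Differences were small for Slc6a20a (-0.42 ± 0.17, adjusted p = 0.0446), whose level was 1.94 to 3.70 in brain too, and Slc17a1 was not called (-0.04 ± 0.07). In the brush border and endocytosis list 13 of 16 were higher in kidney and 1, cathepsin Ctsb (1.02), in brain. There the meprin Mep1a (-5.09), the scavenger receptor megalin Lrp2 (-4.37), the nuclear receptor Hnf4a (-4.02) and dipeptidase Dpep1 (-3.80) led.

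Thick ascending limb genes were higher in kidney for all 5 measured, with a median of -3.87. For 3 of them, Egf, Irx3 (-2.42 ± 0.25) and Ppp1r1a (-1.73 ± 0.15), no kidney sample reached the brain samples. Umod, uromodulin, and Slc12a1, the salt carrier blocked by loop diuretics, overlapped between tissues and are among the spots described above. In 6-month kidney the Umod spot read 6.14, 5.44 and 0.13 in females F1 to F3 and 5.77, 1.91 and 0.38 in males M1 to M3, while the highest brain sample was at 0.30. The difference of Umod was -4.27 ± 0.58 (adjusted p = 3.03e-06) with all samples and -4.98 ± 0.34 without F3 and M3 of that age, and that of Slc12a1 -3.87 ± 0.45 and -4.41 ± 0.28.

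Farther along the nephron, 10 of 14 collecting duct genes were higher in kidney and none in brain (median -1.19). The sodium channel subunit Scnn1b (-1.95), the ammonia channel Rhcg (-1.75, and -1.93 without F3 and M3 of 6 months), the chloride and bicarbonate exchanger Slc26a4 (-1.59) and the transcription factor Tfcp2l1 (-1.41) were among them, and Hsd11b2 (0.09) was not called. In the distal list 4 of 9 were higher in kidney and 2 in brain, against 28.6% and 26.3% of all genes, and the list median was -0.11. Klk1, the sodium pump regulator Fxyd2 (-4.43) and the calcium-binding S100g (-3.27) stood at the kidney side, and the calcium pump Atp2b1 (2.34) and parvalbumin Pvalb (1.65), both of which neurons use, at the brain side. Podocyte and glomerulus genes went both ways, with 5 of 9 higher in kidney and 2 in brain, against 28.6% and 26.3% of all genes. Clic5 (-2.24) and Wt1 (-1.60) led in kidney, and Cd2ap (1.10) and Ptpro (0.76) were higher in brain. A second Cd2ap probe was called in the opposite direction (-0.46 ± 0.11).

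Kidney metabolic enzymes were higher in kidney for 24 of 28 and in brain for none, with a median of -2.62. Beside Pck1 and G6pc, catalase Cat lay between 3.06 and 4.26 in kidney and between -0.37 and 0.65 in brain and differed by -3.65 ± 0.12. The lysine enzyme Aass (-3.78 ± 0.11), Pipox of peroxisomal amino acid breakdown (-4.13 ± 0.11) and the ageing-related hormone gene Kl (-4.52 ± 0.29) had no overlap. Of the 28, 6 are spots of the set near the reference in F3 and M3, among them Keg1 (-5.17 ± 0.68 with all samples, -6.05 ± 0.38 without those 4), Cdh16 (-4.77 ± 0.63 and -5.52 ± 0.40) and the androgen-regulated Kap (-3.76 ± 0.59 and -4.45 ± 0.42). A second Kap probe had the same direction and a larger difference with all samples, -5.35 ± 0.14. Glutathione and oxidant defence genes were higher in kidney for 15 of 25 and in brain for 2. All enzymes of glutathione synthesis that were measured were higher in kidney (Gss -3.81, Gclc -2.89, Gclm -2.81), and the members higher in brain were Gsta3 (2.74) and mitochondrial superoxide dismutase Sod2 (2.34). A second Sod2 probe was called in the opposite direction (-1.70 ± 0.11), so the direction of this gene is not settled here.

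Mitochondrial genes leaned to kidney and by less. Of 19 genes of oxidative phosphorylation 16 were higher in kidney and none in brain, with a median of -0.80, led by the ATP synthase subunits Atp5a1 (-1.77), Atp5g3 (-1.58) and Atp5b (-1.57). Citric acid cycle genes were higher in kidney for 10 of 13 (median -0.64) and fatty acid oxidation genes for 10 of 15 (median -0.63), where Hadh (-4.10), Acads (-3.61), Acaa2 (-3.26) and Cpt2 (-3.03) stood apart from the others. Of 9 glycolysis genes 3 were higher in brain, close to the 26.3% of all genes, with a list median of 0.10, among them the neuronal enolase Eno2 (2.97) and the brain hexokinase Hk1 (1.63), and none was lower by the probes read. Pgam2 was not called by its probe (-0.03 ± 0.06), whereas a second Pgam2 probe was called higher in kidney (-3.05 ± 0.19). Of 16 ribosomal protein genes 14 were not called and 2 were lower in brain, with a median of -0.14, and of 21 extracellular matrix genes 15 were lower and 2 higher, Col18a1 (-2.22) and Lama5 (-2.11) at one end and Sparc (1.49) at the other.

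Markers of adipose tissue were higher in kidney for 5 of 7 genes, and the list mean ran from 0.62 to 1.59 in kidney and from -0.37 to -0.06 in brain. Ucp1, the uncoupling protein of brown fat, lay between 3.32 and 4.22 in 8-week female kidneys, between 0.91 and 3.40 in 8-week male kidneys and between 0.28 and 1.76 at 6 months, and its part in other differences was not tested. The hepatocyte list held 21 measured genes, 6 of them higher in kidney and 2 in brain, near or below the shares of all genes (28.6% and 26.3%). Without brain F2 of 8 weeks, whose albumin level was 3.49 against at most 0.28 in the other brains, 14 rather than 8 of these genes were called. With that sample and kidney F2 and M1 of 8 weeks left out together, all 30 named genes kept their direction and their call. Their choice as called genes without overlap made that likely.

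The tissue difference was largely shared by both ages and both sexes. Across genes, which are not independent replicates, it correlated at 0.937 between 8 weeks and 6 months and at 0.972 between females and males. Of the genes called for brain minus kidney, 97.9% had the same sign at both ages and 99.6% in both sexes. The call itself averages over both ages and both sexes, which made one sign likely for these genes.

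Whether the difference changed between 8 weeks and 6 months was tested as brain minus kidney at 6 months, minus the same at 8 weeks. In limma 243 of 10196 probes were called (2.38%), 148 higher and 95 lower, and 195 of 6377 genes (3.06%). Age and the array set cannot be told apart here, since 8-week arrays carry 10708 probes and 6-month arrays at most 10293. Of the called probes, 225 have probe numbers below 5000, where 4.70% were called, and 18 have higher numbers, where 0.333% were called. The tissue differences of the ages correlated at 0.877 in the lower and 0.978 in the upper stretch of the numbering. For 61.5% of the 195 genes both tissues lay within 0.5 of the reference at one age only, against 16.9% of all genes.

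Ina, the neurofilament α-internexin, had the largest change. Its brain samples read 0.23, 0.30 and 0.22 in 8-week females and 0.28, 0.21 and -0.08 in males, against 4.24, 3.93 and 4.87 in 6-month females and 4.71, 3.57 and 4.97 in males, while no kidney sample exceeded 0.27. The tissue difference was 0.28 at 8 weeks and 4.47 at 6 months, a change of 4.19 ± 0.29 (adjusted p = 1.03e-08). In other words the spot stood near the reference in both tissues at 8 weeks. Slc4a10, a bicarbonate carrier of neurons (-0.07 and 3.62), and Wnt5b (0.04 and 3.54) had the same form, and Efnb3, an ephrin of axon guidance, the opposite one (3.27 at 8 weeks and 0.19 at 6 months, a change of -3.08 ± 0.16).

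Other genes had a difference at both ages. The tissue difference of Slc22a2 was -2.92 at 8 weeks and -5.33 at 6 months (change -2.41 ± 0.28, adjusted p = 9.25e-06), with kidney samples from 2.54 to 3.15 at 8 weeks and from 4.30 to 6.30 at 6 months. Cpt2, which moves fatty acids into mitochondria, went from -1.93 to -4.13, and the transglutaminase Tgm3 from 1.56 to 4.96. Tmpo, of the nuclear lamina, was lower in brain at 8 weeks (-4.23) and close to equal at 6 months (-0.17), and Sft2d2 changed from -0.66 to 2.74. The remaining named genes were Ly86 (0.11 to -2.54), Elavl4 (0.08 to -2.56) and Dao (-0.25 to -2.49), all near the reference in both tissues at 8 weeks. Bex1 alone had differences of at least 1 in opposite directions, -1.11 at 8 weeks and 1.16 at 6 months (adjusted p = 0.0208 for the change). All 12 named genes of this contrast have probe numbers below 5000.

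**Figure D3:**
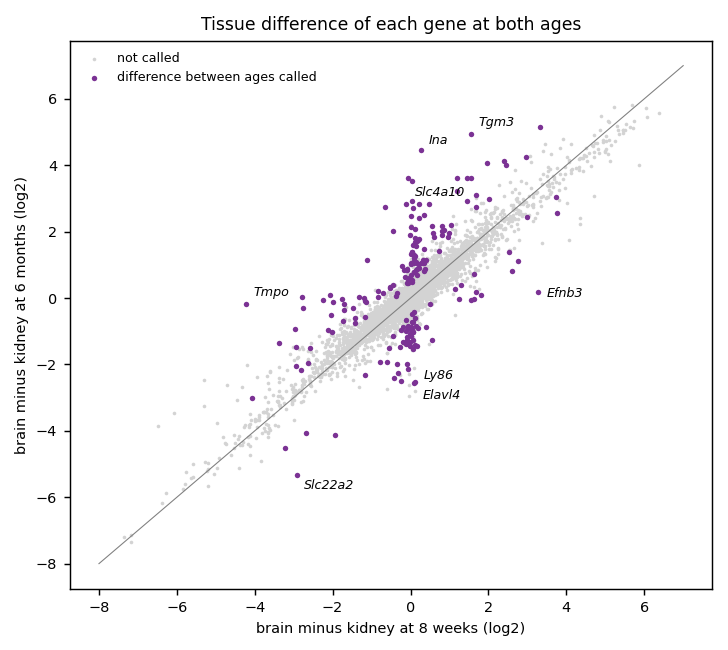
Brain minus kidney (log2) at 8 weeks (x) and 6 months (y) for each of the 6377 genes, with the 195 genes whose difference changed between ages in purple and a line of equal values. Most genes follow the line, and called genes such as Ina, Slc4a10 and Efnb3 lie along an axis, with a difference at one age only.

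The difference depended on sex at few genes. Tested as brain minus kidney in females minus the same in males, 52 of 10196 probes (0.51%) and 43 of 6377 genes (0.674%) were called. Of these 43 genes, 42 were also called for female minus male within kidney and none within brain. Within kidney, 150 probes (1.47%) and 115 genes (1.8%) were called, 71 genes higher in females (1.11%) and 44 in males (0.69%). Of the probes called for female minus male in kidney, 59.3% were higher in females, and 85.6% without centring. Within brain 2 probes were called (0.0196%), Kdm5d and a probe without a single gene symbol, and 294 had an unadjusted p below 0.05 in limma. Among 6321 genes with all values, kidney females and males did not overlap for 98 (58 and 40 with females and males above), or 1.55%, and brain females and males for 0.0633%.

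Among the 12 genes named for this contrast, the largest difference was that of Cyp7b1, which hydroxylates oxysterols and androgens. It ran from 4.40 to 5.87 in male kidney (median 5.13) and from 1.37 to 2.40 in female kidney (median 1.84), a female minus male difference of -3.25 ± 0.26 (adjusted p = 4.67e-07). Its brain samples, 1.22 to 2.17 in females and 0.84 to 2.05 in males, overlapped the female kidneys, so that brain minus kidney was -0.42 in females and -3.52 in males. This change with sex was 3.10 ± 0.37 (adjusted p = 2.62e-04). Inmt, an amine methyltransferase (-2.37 ± 0.23), Pzp, a protease inhibitor (-2.18 ± 0.24), Cyp2d9, a male steroid hydroxylase (-1.94 ± 0.22), the lysosomal Galns (-1.84 ± 0.19) and Serpinf2 (-1.81 ± 0.23) followed, with no overlap between the sexes in kidney. The highest brain level of Pzp, 1.54, was that of brain F2 of 8 weeks. Odc1, the rate-limiting enzyme of polyamine synthesis, lay between 1.99 and 3.36 in male and between 1.03 and 1.83 in female kidney, a difference of -1.56 ± 0.24 (adjusted p = 9.58e-04).

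Genes higher in female kidney included reductases. Cbr1, carbonyl reductase, ran from 2.22 to 2.67 in female and from -0.33 to 0.58 in male kidney, a difference of 2.36 ± 0.12 (adjusted p = 3.03e-10), and from 0.14 to 1.22 over all brains. Its tissue difference was -1.87 in females and 0.56 in males. Akr1c18, which inactivates progesterone, lay between 3.31 and 4.84 in female and between 0.63 and 2.42 in male kidney (2.42 ± 0.15, adjusted p = 1.09e-08), and Rdh16f2 of retinol metabolism between 4.71 and 6.27 and between 2.74 and 4.15 (2.36 ± 0.24). Kcnk1, a background potassium channel, was higher in brain than kidney in males by 1.61 and not in females (-0.03), since female kidneys, at 3.01 to 4.02, lay among the brain samples and male kidneys, at 1.14 to 2.30, below them. That change with sex was -1.64 ± 0.32 (adjusted p = 0.0165).

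Bhmt (1.99 ± 0.31) and Cyp4a14 (2.03 ± 0.35) were higher in female kidney as well, although their change of the tissue difference with sex was not called (adjusted p = 0.207 and 0.111). For Cyp4a14 the female kidney F3 of 6 months, at 0.19, lay among the males (2.48 ± 0.19 without F3 and M3 of that age), and for Bhmt brain F2 of 8 weeks stood at 2.43 above all other brains. The spots H2-DMa, Scd1 and Ace were called too, with female minus male differences in kidney of 1.66, 1.68 and 1.71. Their readings ran in parallel: those of Scd1 and Ace differed by at most 0.24 in any adult sample and by up to 6.72 in the samples of 1 week. Their change of the tissue difference with sex lost 43 calls, summed over the 3 genes and the 24 fits that each left out 1 sample, and the other 9 named genes of that contrast lost none. Of 16 genes on the list of sex-dependent kidney genes, 14 were higher in kidney than in brain, 2 were higher in female and 4 in male kidney, and Napsa (0.26 ± 0.25) and Kap (0.52 ± 0.84, and 0.81 ± 0.60 without F3 and M3 of 6 months) were not called for sex. For the second Kap probe, female minus male in kidney was -0.10 ± 0.24 without F3 and M3 of 6 months and was not called.

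**Figure D4:**
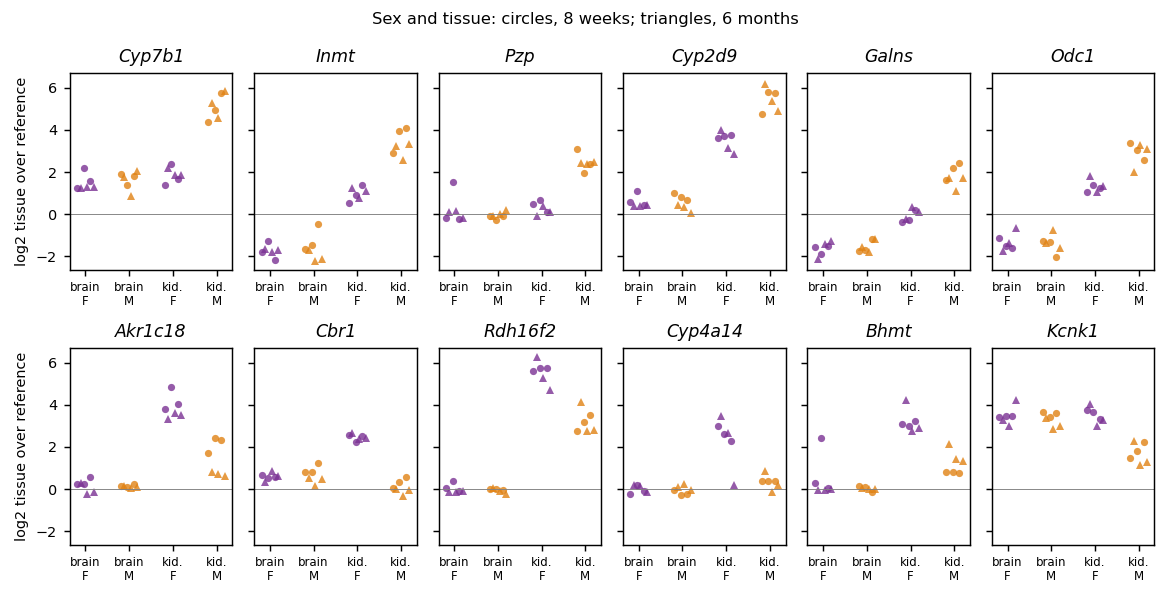
Level (log2 of tissue over reference) of 12 genes by tissue and sex, 1 point per sample, with circles for 8 weeks and triangles for 6 months and 6 samples in each column. The 6 genes of the upper row are higher in male kidney and the 6 of the lower row in female kidney, while females and males overlap in brain for each of the 12.

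The adult difference was set against that of 12 B6 samples of 1 week, 3 of each tissue and sex. Neurons are still forming synapses and the nephron is still maturing at that age, as background. In limma 1799 of 9870 probes (18.2%) and 1354 of 6376 genes (21.2%) were called, 623 genes higher in adults (9.77%) and 731 lower (11.5%), and the differences correlated across genes at 0.754. The balance depends on scaling: for brain minus kidney, adult against 1 week, 46.9% of the called probes were higher in adults, and 70.2% without centring. Of the 1354 genes, 699 had a larger difference of the same sign in adults, 223 a larger one of the same sign at 1 week, and 432 opposite signs. Age and array set cannot be told apart in this comparison. Among probes numbered below 5000, 13.2% were called and the correlation was 0.799, and among the others 23.0% and 0.698. The hepatocyte list mean was 1.40 to 1.57 in female and 0.21 to 0.29 in male kidneys of 1 week. In brains of 1 week it was 1.07 in F2 and 1.22 in M2, against 0.07 to 0.53 in the others. The part of this list in the result was not tested.

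Proximal tubule transporters differed more in adults. Of 30, 22 had a lower brain minus kidney value in adults and none a higher one, and the median was -1.01 at 1 week and -2.77 in adults. The shift was found on both sides of probe number 5000, for 10 of 17 and 12 of 13. Slc22a6 went from -0.28 to -3.39, Slc22a12, the urate carrier, from -0.38 to -2.89, and Slc7a9 from -4.38 to -5.69. Kidney metabolic enzymes changed in the same direction for 15 of 28 (median -0.94 and -2.62) and in the other for 2, and glutathione genes for 11 of 25 and 3. Catalase went from -0.69 to -3.65 and Egf from -2.06 to -6.07.

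Synaptic vesicle genes differed more in adults for 9 of 18 and less for 1, with a median of 1.72 at 1 week and 3.43 in adults. This larger median came from the 13 genes with probe numbers from 5000 on (1.72 and 3.46), while that of the 5 below 5000 was 1.41 at 1 week and 0.53 in adults. Rab3a went from 1.71 to 4.72 and Syp from 1.72 to 4.28. Structural genes of the neuron went both ways, with 5 of 18 higher in adults and 3 lower. The myelin gene Mag went from 0.34 to 2.59, and Dcx, a microtubule protein of migrating neurons, from 3.90 to 1.46. Endothelial genes, which were higher in kidney at 1 week with a median of -1.02, stood at -0.25 in adults, and 8 of 15 changed.

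Several of the largest changes belong to spots that read near the reference in both tissues in one array set. Fez1 (adult 5.97, 1 week -0.06), Naprt (5.20 and -0.43), Pianp (5.75 and 0.25), Vdr (-5.80 and -0.16) and Slc6a19 (-4.55 and -0.04) had no difference of 1 or more at 1 week. Dusp2 was at -7.14 in adults and at 1.34 at 1 week. In the other direction, the stathmin Stmn3 (0.38 and 4.88), Aplp1 of the amyloid precursor family (-0.01 and 4.45) and Hoxd9 (-0.11 and -4.69) had little difference in adults. Whether such a spot holds the same sequence in each array set was not tested.

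**Figure D5:**
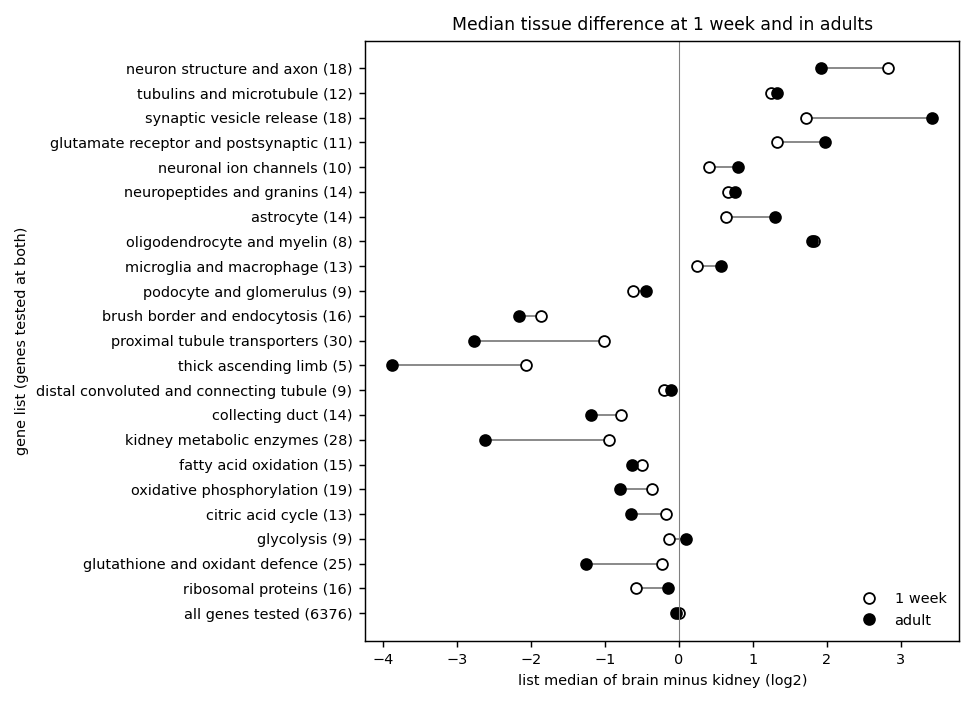
Median of brain minus kidney (log2) over the members of each gene list at 1 week (open circles) and in adults (filled circles), for lists with at least 5 genes tested at both ages and for all genes tested. The median of proximal tubule transporters lies at -1.01 and -2.77 and that of synaptic vesicle genes at 1.72 and 3.43, while that of all genes stays near 0 (0.01 and -0.04).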

How the data were processed

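The members and gene lists were chosen with earlier results of these data known. The authors deposited 1 linear ratio per probe and array, per the labels' arrangement of tissue and reference RNA in 2 channels. The scanner, background correction, dye correction and scaling are not given in the sources used here, and the numerator is not named. Ratios were inverted, exact zeros (2409 values, all at 6 months) were set missing, and log2 values were centred on each array's median, averaged per dye, and the 2 dye means averaged. Probes needed 2 samples with a value in each group. limma 3.58.1 in R 4.3.3 fitted 8 group means with 16 residual degrees of freedom, two-sided, with Benjamini-Hochberg adjustment over all probes tested, and the comparison with 1 week used 12 groups. The procedure was tested on simulated data. Of 12304 probes, 8681 have 1 gene symbol in the platform annotation, 510 several and 3113 none. A gene was read from the probe with most values, then the lowest number. Named genes were the 15 highest and 15 lowest called without overlap and with one sign in all 4 strata, the 6 highest and 6 lowest called in other contrasts, and list members. Bex1 and the set of spots near the reference were chosen after values were seen. The pituitary list had no measured gene. Promoter sequences are from RefSeq. The alternatives tried were centring, scaling, single dyes, the handling of missing values, the probe filter, the groups in the fit, a replicate block, a fit of single arrays with dye as a term (statmod 1.5.0) and leaving out samples. For the 8-week brain arrays the dye effect per probe correlated at -0.858 to -0.617 with those of the other age and tissue groups, which correlated at 0.65 to 0.9 among themselves, so their dye labels may be exchanged. The mean over both dyes is unaffected by that.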

Additional observations from a re-analysis of the deposited data

Results flagged for a closer look

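The tissue difference itself differed between groups for 3 contrasts, each tested in limma as a difference of differences. Between 8 weeks and 6 months 243 probes were called, between females and males 52, and between adults and 1 week 1799.

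For 6 months minus 8 weeks the largest changes of brain minus kidney were those of Ina (4.19), Tmpo (4.06), Slc4a10 (3.70), Wnt5b (3.50), Sft2d2 (3.40) and Tgm3 (3.39) upwards and of Efnb3 (-3.08), Ly86 (-2.65), Elavl4 (-2.64), Slc22a2 (-2.41), Dao (-2.24) and Cpt2 (-2.20) downwards. All 12 spots have probe numbers below 5000, and age and array set cannot be told apart.

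For females minus males the changes were those of Cyp7b1 (3.10), Pzp (2.43), Inmt (2.24), Cyp2d9 (1.93), Serpinf2 (1.91) and Galns (1.74), whose male kidneys were higher, and of Cbr1 (-2.43), Akr1c18 (-2.39), Rdh16f2 (-2.32), H2-DMa (-1.93), Scd1 (-1.92) and Ace (-1.90), whose female kidneys were higher.

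For adults minus 1 week the changes were those of Fez1 (6.03), Naprt (5.63), Pianp (5.50), Pcsk1n (4.64), Hoxd9 (4.58) and Stac2 (4.26), and of Dusp2 (-8.49), Vdr (-5.64), Slc6a19 (-4.52), Stmn3 (-4.50), Aplp1 (-4.46) and Gipc2 (-4.18).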

How the results depend on the processing

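No gene named by its rank in a contrast changed sign under an alternative run, but the balance of higher and lower calls turned without centring. The signs of other list members were not followed over these runs. The 30 genes named for brain minus kidney kept direction and call under all of them, the 24 fits that left out 1 sample included, and so did the 12 named genes of the age contrast, of the 1-week contrast and of female minus male in kidney. All of these were picked as the most extreme called genes, the 30 also for no overlap and one sign in all 4 strata. Their choice made this outcome likely, and it does not speak for other genes. For brain minus kidney, 8 weeks against 6 months, 1079 probes were called with Cy3 arrays alone, 2615 with Cy5 arrays alone and 426 in the array-level fit with a dye term, against 243. For brain minus kidney, female against male, these settings gave 14, 18 and 104 and all groups of the series in one fit gave 31, against 52. For female minus male in kidney they gave 59, 88 and 314, against 150. For female minus male in brain, 2 probes were called, 5 in the array-level fit, and 1 with no centring, with either dye alone, with all groups in the fit or with the 3 or 4 samples below left out. The dye labels of 8-week brain, which these dye settings rest on, are in doubt, and the cause of these moves was not tested.

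Leaving out 1 sample gave 4621 to 4943 probes for brain minus kidney, 211 to 275 for the age contrast, 40 to 67 for the sex contrast, 104 to 180 for female minus male in kidney, 1 to 3 for female minus male in brain and 1700 to 1808 against 1 week. Of the 12 genes named for the sex contrast, H2-DMa, Scd1 and Ace accounted for all 43 calls lost when 1 sample was left out. These 3 also lost their call without the 3 samples that stand apart (brain F2, kidney F2 and kidney M1 of 8 weeks), and H2-DMa and Ace without F3 and M3 of 6 months, with 4828 probes called for brain minus kidney in the latter case, 4440 of them shared. Both of these alternatives were chosen after seeing the data.

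Without centring, the median difference of all probes for brain minus kidney moved from -0.04 to 0.08, and the share of calls that were higher was 60.5% for brain minus kidney (48.9% with it), 85.6% for female minus male in kidney (59.3%) and 70.2% for brain minus kidney, adult against 1 week (46.9%; 61.3% with Cy3 and 31.5% with Cy5 arrays alone).

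The labels give brain and kidney the same replicate numbers. Deviations of same-numbered samples correlated at 0.049 to 0.406 (12 pairs, median 0.286, 10 over 0.1), and those of different numbers at no more than 0.14. The numbers were not taken as a pairing because the labels do not state one and 2 of the pairs stayed at or below 0.1. Of the 12 brain samples, 10 correlated best with the kidney of their own number. At 6 months, F3 and M3 of both tissues also shared spots near the reference, such as that of Mapt. Whether same-numbered samples share an animal was not tested. With a replicate block, 5138 probes were called for brain minus kidney, 236 for brain minus kidney, 8 weeks against 6 months, 53 for brain minus kidney, female against male, and 2019 for brain minus kidney, adult against 1 week. Of 43 gene lists, 3 had counts of calls that moved by over 1.5 times under the block, those of erythroid, glycolysis and ribosomal protein genes. The contrasts of females and males within a tissue could not be fitted with that block.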

Other observations

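Samples differed in genes of other tissues. In brain F2 of 8 weeks Serpina1c, an antitrypsin of hepatocytes, stood at 6.13 against at most 0.97 in the other brains. In kidney F2 of 8 weeks Star, which admits cholesterol to steroid synthesis, stood at 3.81 against at most 0.44 in the other kidneys. Ttr, the thyroxine carrier of the choroid plexus, ran from 1.07 to 7.03 over the brains and from 3.41 to 5.82 over the kidneys. The part of these genes in other results was not tested.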
